A study of Mus musculus with 8 samples.

Results

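The mitochondrial ribosomal protein genes examined here were the protein-coding genes with a symbol made of Mrpl or Mrps, a number and at most 1 further letter. By this rule there were 78 members, 49 named *Mrpl* and 29 named *Mrps*, among the 55401 genes of the count files. The rule uses the symbol alone. RNA of mouse embryonic stem cells (ESCs) was sequenced in 8 libraries to ask how its abundance responds to loss of ZZZ3 or YEATS2, each a part of the ATAC coactivator complex. Of these libraries, 2 were controls, 3 came from cells labelled Zzz3 auxin and 3 from cells labelled Yeats2 auxin. In the auxin groups ZZZ3 or YEATS2 carried an auxin-inducible degron (AID), a tag through which the plant F-box protein Tir1 marks its carrier for destruction, and auxin was given at 500 µM for 24 h. Cells grew with fetal calf serum, LIF and 2i. From which line the controls came and what they were treated with is not on the labels, so depletion, auxin exposure and line cannot be told apart in a comparison with control. Both comparisons with control used the same 2 control libraries. No label says whether replicates were separate cultures, so P values measure the spread between these libraries, which may be technical. Yeats2 auxin replicates 1 and 3 were far closer to each other than other pairs within a group. The chi-square per gene between their counts was 3.82, against 22.1 to 53.9 for the other pairs.

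Mitochondria carry their own ribosome, which translates the few mRNAs encoded by mitochondrial DNA, all for subunits of the respiratory chain and ATP synthase. Its ribosomal RNAs come from mitochondrial DNA, whereas every protein of it is encoded in the nucleus, made in the cytosol and imported. Many of these proteins have a counterpart in bacterial ribosomes and others occur in mitochondria alone. They form a large subunit, which joins amino acids, and a small subunit, which reads the mRNA. By structure *Mrps30* and *Mrps18a* belong to the large subunit despite their names, which gave 51 large and 27 small subunit genes, and the product of *Mrps36* is now known as part of the alpha-ketoglutarate dehydrogenase complex.

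Each library held 14315120 to 27884704 reads that fell on genes, and the members took 0.458% to 0.525% of them. Each of 9 ESC markers was present, with a summed level of 4549 to 5346 CPM (reads scaled to the same library total), against 4.14 to 8.48 CPM for 5 feeder fibroblast markers and 15.1 to 27.7 CPM for 9 markers of differentiated lineages. None of these markers was at 0 in every library. Single ESC markers moved both ways in Zzz3 auxin, with 3 positive and 6 negative log2 FCs. The highest was that of *Pou5f1* (log2 FC 0.62, edgeR adjusted P 0.106), the 1 marker of these 9 that DESeq2 called there, against 7.47% of all genes. *Zzz3* mRNA was at 186 and 182 CPM in the controls, 77.5, 96.9 and 112 CPM in Zzz3 auxin and 183 to 191 CPM in Yeats2 auxin. *Yeats2* mRNA was at 90.9 and 95.8 CPM in the controls and at 77.3, 103 and 43.7 CPM in Yeats2 auxin, which overlapped them. In Zzz3 auxin it was at 133, 119 and 123 CPM, above both controls (log2 FC 0.42, edgeR adjusted P 0.386). The degron acts on the protein, which these data do not measure.

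Nearly all of the genes were well expressed. A total of 77 passed the filter on low counts, and 74 of them had at least 10 CPM in the controls. Per kilobase of exon, the median level in the controls was 23.8 CPM, against 4.95 CPM for the 13634 protein-coding genes tested. The median was 24.98 CPM per kb for 50 large subunit genes and 18.3 CPM per kb for 27 small subunit genes. *Mrpl18*, whose product binds 5S ribosomal RNA in other ribosomes, was the most abundant at 83.1 CPM per kb, followed by *Mrpl50* at 69.5, *Mrpl49* at 64.2, *Mrpl45* at 60.6 and *Mrps2* at 53.3. In the single control libraries *Mrpl18* had 76.2 and 90.1 CPM per kb, narrowly above the 75.7 and 63.3 CPM per kb of *Mrpl50*. From *Mrpl50* to *Mrps2*, the control levels of each neighbouring pair overlapped, so their order is not resolved. At the low end, *Mrpl23* had 0.501 CPM per kb, *Mrps36* 0.826, *Mrpl48* 1.66, *Mrps33* 3.90 and *Mrps10* 4.67, and the control levels of neighbours did not overlap. The first 3 of these have named pseudogenes, 1 each for *Mrpl23* and *Mrpl48* and 3 for *Mrps36*, and reads that align to several places were not counted, so their levels are uncertain.

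**Figure D1:**
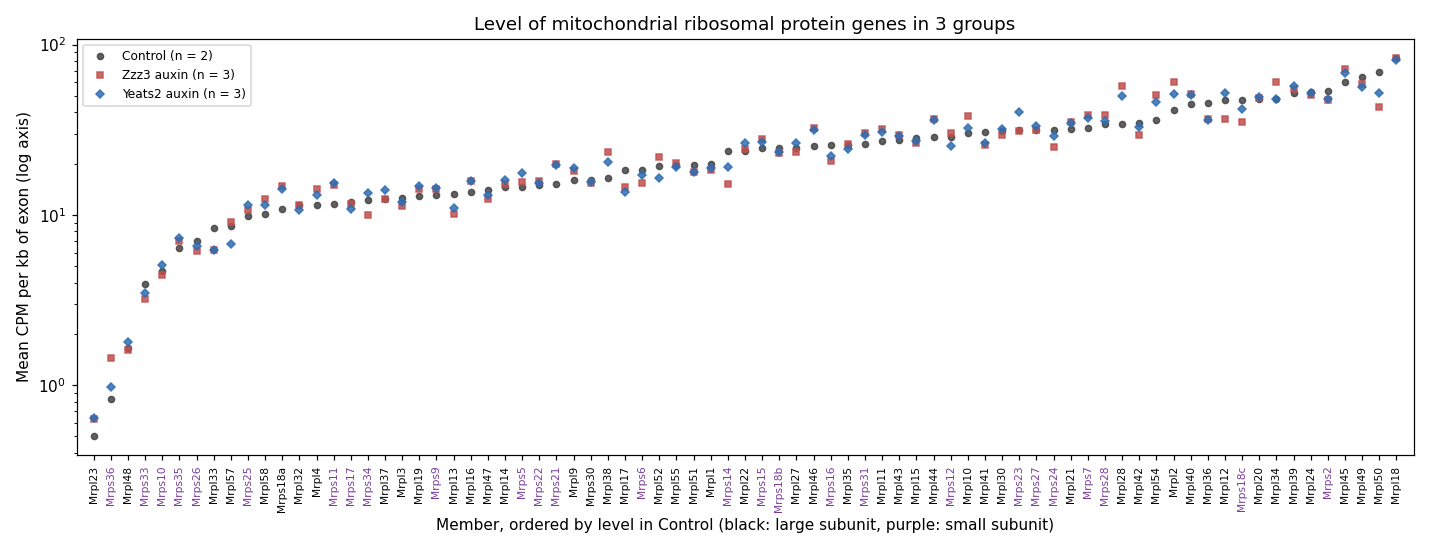
Mean level of the 77 tested mitochondrial ribosomal protein genes in each group, in CPM per kb of exon on a log axis, ordered by the level in the 2 control libraries (circles), with squares for 3 Zzz3 auxin and diamonds for 3 Yeats2 auxin libraries. Apart from 3 genes under 2 CPM per kb, the levels run from 3.90 (*Mrps33*) to 83.1 (*Mrpl18*) in the controls, and the symbols of the 3 groups mostly lie close together.

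*Mrpl53* (ENSMUSG00000030037, GRCm38 chromosome 6, 83109040 to 83109939, plus strand) was the member that did not pass the filter. It had 0 reads in each of the 8 libraries, which allows up to 0.108 to 0.201 CPM depending on the library. Of its 790 exon bases, 695 are also exon of *Gm42688* on the same strand, which had 1.28 to 2.13 CPM. Reads that fall on 2 genes were left unassigned in the counting, so this 0 is no measure of *Mrpl53* RNA. Other overlaps were common: exons of 28 members overlap exons on the opposite strand and those of 8 members overlap exons on the same strand. Whether the counting used strand is not given in the sources used here.

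Promoters of the members were rich in GC. RefSeq start sites on GRCm38.p6 gave windows from 250 bases before to 50 bases after the start for 69 members, 75 windows in all, with a median GC content of 58.7% and a median of 21 CpG per window, against 52.7% and 7 over 32851 windows of all genes. The motif CCGGAAG of ETS factors was in 34.7% of member windows and 8.86% of all windows, on either strand. For GCGCANGCG of NRF1, a regulator of nuclear genes for mitochondria, the shares were 21.3% and 6.25%, for AANATGGCG of YY1 14.7% and 2.38%, and for ACTACANNT of ZNF143 9.33% and 4.16%. GGGCGGG, the GC box, was in 42.7% and 25.6%, CCAAT in 40.0% and 37.4%, and TATAAA in 6.67% and 13.6%. These are matches of letters, which do not show binding. The windows of all genes were neither limited to expressed genes nor matched for CpG, and some genes have several windows. How far the differences in shares rest on this was not tested. Each stretch below is the longest part of the 250 bases before a RefSeq start that no annotated exon covers. That of *Mrpl33* lies inside its annotated gene, which starts at 31596935, so it is not upstream of the first exon. The 6 stretches belong to 4 members that were lower in both auxin groups (*Mrpl50*, *Mrps14*, *Mrpl33* and *Mrpl17*) and 2 that were higher in both (*Mrpl28* and *Mrps18a*). Capitals in these stretches mark matches to the 7 motifs. They are shown since the values of these 6 genes carry most of what follows.
Mrpl50, chr4:49521094-49521175, minus strand: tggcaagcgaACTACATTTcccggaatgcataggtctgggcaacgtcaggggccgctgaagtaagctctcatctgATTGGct
Mrps14, chr1:160194965-160195214, plus strand: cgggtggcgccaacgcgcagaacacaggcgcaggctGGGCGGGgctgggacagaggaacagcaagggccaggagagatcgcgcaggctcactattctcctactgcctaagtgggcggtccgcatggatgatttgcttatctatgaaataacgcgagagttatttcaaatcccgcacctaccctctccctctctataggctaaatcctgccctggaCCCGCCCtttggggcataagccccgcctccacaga
Mrpl33, chr5:31613701-31613938, plus strand: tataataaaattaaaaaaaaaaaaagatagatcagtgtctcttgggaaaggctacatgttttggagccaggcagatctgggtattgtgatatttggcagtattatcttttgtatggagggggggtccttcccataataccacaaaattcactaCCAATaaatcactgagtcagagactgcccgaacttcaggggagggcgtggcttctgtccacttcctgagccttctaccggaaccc
Mrpl17, chr7:105811100-105811337, minus strand: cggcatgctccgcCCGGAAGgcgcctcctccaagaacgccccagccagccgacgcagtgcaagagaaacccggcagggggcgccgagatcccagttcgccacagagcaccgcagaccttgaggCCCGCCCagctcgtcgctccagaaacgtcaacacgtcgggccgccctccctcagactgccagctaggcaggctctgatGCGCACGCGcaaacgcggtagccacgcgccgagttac
Mrpl28, chr17:26123255-26123499, plus strand: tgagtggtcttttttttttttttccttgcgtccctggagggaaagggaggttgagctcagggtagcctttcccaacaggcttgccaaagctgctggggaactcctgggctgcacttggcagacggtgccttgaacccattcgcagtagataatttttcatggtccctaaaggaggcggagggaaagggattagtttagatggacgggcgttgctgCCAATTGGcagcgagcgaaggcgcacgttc
Mrps18a, chr17:46110754-46110985, plus strand: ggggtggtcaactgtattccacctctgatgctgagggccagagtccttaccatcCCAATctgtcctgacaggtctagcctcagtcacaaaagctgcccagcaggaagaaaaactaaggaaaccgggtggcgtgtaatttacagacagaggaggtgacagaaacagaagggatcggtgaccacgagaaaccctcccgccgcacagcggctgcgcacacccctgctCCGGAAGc
The marked letters differ from stretch to stretch, and ETS and CCAAT matches occur in stretches of both directions. A relation of the motifs to the direction of the values was not tested. It cannot be read from 6 stretches picked after their values were seen. *Mrpl17* holds an ETS, an NRF1 and a GC box match, *Mrps18a* an ETS match and a CCAAT, *Mrps14* a pair of GC boxes, *Mrpl33* a CCAAT, *Mrpl50* a ZNF143 match and a CCAAT on the opposite strand, and *Mrpl28* overlapping CCAAT matches on both strands. The *Mrpl50* stretch is short because *Zfp189* starts head to head with it.

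The RNA of the members, as a group, stayed close to the control level after depletion of ZZZ3. None of the 77 tested members passed edgeR's quasi-likelihood test at an adjusted P under 0.05, with a smallest adjusted P of 0.0719 (edgeR, *Mrpl50*). Of all 17532 genes only 0.753% passed, so 0 of 77 does not set the members apart. The median log2 fold change (FC) was 0.02 over the members and 0.01 over all genes, and the middle 50% of members lay between -0.14 and 0.22. Below an unadjusted P of 0.05 lay 5 members with higher and 8 with lower values, together 13 of 77, against 21.7% of all genes. A 2-fold change in either direction was outside the 95% interval of 71 members. The 6 whose interval reached it were *Mrpl50* and *Mrps14* on the lower side and *Mrpl2*, *Mrpl28*, *Mrpl54* and *Mrps36* on the higher side.

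YEATS2 depletion gave a like picture. Again 0 of 77 members passed, near the share of 0.445% over all genes, with a smallest adjusted P of 0.113 (edgeR, *Mrpl17*). The median log2 FC was 0.08, against -0.01 over all genes, and the middle 50% lay between -0.11 and 0.19. Below an unadjusted P of 0.05 were 2 members with higher and 4 with lower values, against 14.6% of all genes, and a 2-fold change was outside the interval of 75 members, the exceptions being *Mrpl28* and *Mrps36*. Libraries of both groups did not overlap for 15 members on the higher and 18 on the lower side of the Zzz3 comparison, where 16.8% and 18.9% of all genes did so, and for 18 and 15 members in Yeats2 auxin, where the shares of all genes were 19.3% and 21%. These counts of members are close to the background.

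**Figure D2:**
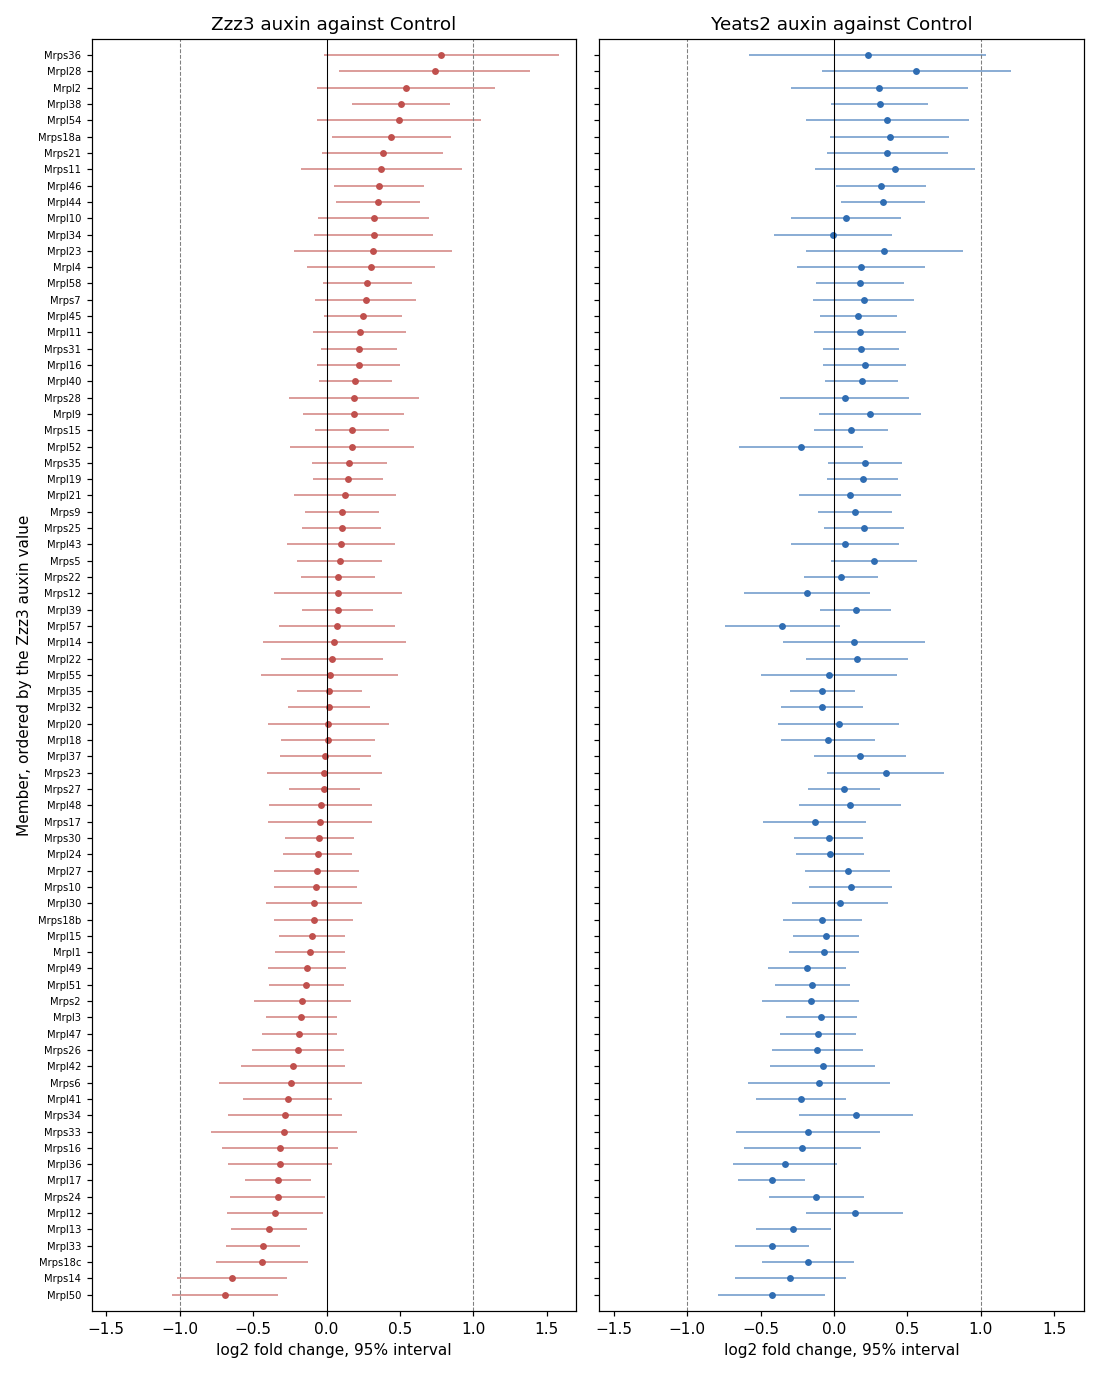
Log2 FC of each of the 77 tested members in Zzz3 auxin (left) and Yeats2 auxin (right) against control, with 95% intervals from edgeR, both ordered by the Zzz3 auxin value. Dashed lines mark a 2-fold change. The intervals of 71 members on the left and 75 on the right lie between these lines, and both panels use the same 2 control libraries.

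*Mrpl33*, *Mrpl17* and *Mrpl13* were among the large subunit genes with bacterial counterparts that were lower in every auxin library than in either control. The same held for *Mrpl1*, *Mrpl3*, *Mrpl15* and *Mrpl36*. After ZZZ3 depletion, 9 of the 30 genes of this class lay wholly below the controls and 4 wholly above. Of all genes, 18.9% and 16.8% did so. After YEATS2 depletion, 8 of the class lay below and 5 above, against 21% and 19.3% of all genes. *Mrpl33* (ENSMUSG00000106918, chromosome 5, 31596935 to 31664384, plus strand) encodes a small zinc-binding protein in bacteria. It had 64.3 and 57.8 CPM in the controls, 43.7, 45.3 and 46.8 CPM in Zzz3 auxin and 45.0, 47.1 and 44.5 CPM in Yeats2 auxin. Its log2 FCs were -0.43 (SE 0.11, edgeR adjusted P 0.0840) and -0.42 (SE 0.11, edgeR adjusted P 0.142). The auxin libraries formed a narrow group, apart from both controls, but neither value passed over all genes. Of the exon bases of *Mrpl33*, 261 overlap *Gm43809* on the same strand.

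*Mrpl17* (ENSMUSG00000030879, chromosome 7, 105803206 to 105811099, minus strand), a protein at the tunnel through which the new chain leaves, had 138 and 139 CPM in the controls. In Zzz3 auxin there were 115, 112 and 104 CPM and in Yeats2 auxin 104, 105 and 100.5 CPM. The log2 FC was -0.33 (SE 0.10, edgeR adjusted P 0.115) and -0.43 (SE 0.10, edgeR adjusted P 0.113). With DESeq2 *Mrpl17* was the single member called in Yeats2 auxin (adjusted P 0.0239), where 3.15% of the genes with an adjusted P were called. Every auxin library lay below both controls, while the auxin groups overlapped with each other.

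*Mrpl13* (chromosome 15), a conserved protein of the large subunit, had 106 and 104.5 CPM in the controls, 72.6 to 86.9 CPM in Zzz3 auxin and 83.3 to 93.0 CPM in Yeats2 auxin, with log2 FCs of -0.39 and -0.28. *Mrpl36*, a short protein that binds zinc in bacteria, had 52.5 and 53.2 CPM in the controls and 39.8 to 44.9 CPM in Yeats2 auxin, a log2 FC of -0.34 (SE 0.16). In Zzz3 auxin its 33.5 to 50.8 CPM also lay below both controls. None of these values passed, and 330 exon bases of *Mrpl13* overlap *Mtbp* on the opposite strand.

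In the opposite direction, *Mrpl28* (ENSMUSG00000024181, chromosome 17, 26123500 to 26126613, plus strand) had the highest positive value of the well expressed members in both comparisons. It had 35.5 and 58.3 CPM in the controls, 63.2, 60.5 and 112 CPM in Zzz3 auxin and 62.2, 83.7 and 61.9 CPM in Yeats2 auxin. The log2 FCs were 0.74 (SE 0.29, edgeR adjusted P 0.184) and 0.56 (SE 0.29, edgeR adjusted P 0.397). Its controls differed by more than the gap between Control replicate 2 and most auxin libraries, and Zzz3 auxin replicate 3 stood far above the others. When Control replicate 1 was left out, its log2 FCs were 0.42 after ZZZ3 and 0.25 after YEATS2 depletion, and when Control replicate 2 was left out they were 1.145 and 0.97. Leaving out Zzz3 auxin replicate 3 gave 0.41 for the former comparison. *Mrpl2*, which lies at the catalytic center in bacterial ribosomes, behaved alike, with 37.9 and 59.2 CPM in the controls and 63.6, 51.0 and 98.2 CPM in Zzz3 auxin, where the groups overlapped, a log2 FC of 0.54 (SE 0.27) that lay between 0.25, without Zzz3 auxin replicate 3 or Control replicate 1, and 0.91, without Control replicate 2.

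The stalk of the large subunit recruits translation factors and includes *Mrpl10*, *Mrpl11* and *Mrpl12*. *Mrpl12* (ENSMUSG00000039640, chromosome 11, 120484613 to 120489065, plus strand), the L7/L12 protein, which also occurs with the mitochondrial RNA polymerase, had 70.7 and 73.3 CPM in the controls. It had 61.0, 62.2 and 45.9 CPM in Zzz3 auxin and 88.9, 76.4 and 72.9 CPM in Yeats2 auxin. Thus all Zzz3 auxin libraries lay below the controls, while those of Yeats2 auxin lay around or above them. Its log2 FC was -0.35 (SE 0.15, edgeR adjusted P 0.203) in Zzz3 auxin and 0.14 (SE 0.15) in Yeats2 auxin. The other two stalk genes lay in the opposite direction in Zzz3 auxin. *Mrpl10* had 46.8 and 56.9 CPM in the controls, 55.8, 57.8 and 81.1 CPM in Zzz3 auxin and 50.4 to 58.2 CPM in Yeats2 auxin, with log2 FCs of 0.32 and 0.08. *Mrpl11* had 83.9 and 91.3 CPM in the controls, 91.7, 96.8 and 119 CPM in Zzz3 auxin and 91.5 to 112 CPM in Yeats2 auxin. Both auxin groups of *Mrpl11* lay above the controls, by a narrow margin, while the groups of *Mrpl10* overlapped. The 3 stalk genes had a median of 0.23 with 2 positive values in Zzz3 auxin and a median of 0.14 with 3 positive values in Yeats2 auxin.

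Proteins found in mitochondrial ribosomes alone included the member with the lowest value. *Mrpl50* (ENSMUSG00000044018, chromosome 4, 49512596 to 49521093, minus strand) had 160.0 and 134 CPM in the controls, 87.8, 113 and 71.95 CPM in Zzz3 auxin and 111, 109.6 and 107 CPM in Yeats2 auxin. The means were 147 ± 18.6 CPM (SD, n = 2), 90.9 ± 20.7 CPM (n = 3) and 109 ± 1.91 CPM (n = 3). The log2 FC was -0.69 (SE 0.17, edgeR adjusted P 0.0719) in Zzz3 auxin and -0.43 (SE 0.17, edgeR adjusted P 0.267) in Yeats2 auxin. Every auxin library was below both controls. *Mrpl50* was called in Zzz3 auxin by 3 of 16 alternative fits. These were DESeq2 (adjusted P 0.0104), edgeR without a filter on low counts (adjusted P 3.15e-04) and edgeR without Zzz3 auxin replicate 2 (log2 FC -0.87, adjusted P 0.0248). That replicate was the Zzz3 auxin library nearest to the controls. DESeq2 called 7.47% of all genes there, and the unfiltered fit 4.67%.

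*Mrpl38* (ENSMUSG00000020775, chromosome 11, 116131817 to 116138868, minus strand), a protein of the central protuberance at the top of the large subunit, had 37.6 and 46.0 CPM in the controls, 67.9, 50.6 and 59.9 CPM in Zzz3 auxin and 55.3, 49.0 and 51.2 CPM in Yeats2 auxin. The log2 FCs were 0.51 (SE 0.15, edgeR adjusted P 0.105) and 0.31. Each auxin library was above both controls. The 9 genes of the central protuberance had medians of 0.17 and 0.11 in Zzz3 and Yeats2 auxin, with 7 and 6 positive values, and the 8 genes around the exit tunnel had medians of 0.06 and 0.15. With edgeR 0 genes of either list were called, near the shares of 0.753% and 0.445% over all genes. With DESeq2 the calls were *Mrpl38* of the central protuberance in Zzz3 auxin and *Mrpl17* of the exit tunnel in Yeats2 auxin. DESeq2 called 7.47% and 3.15% of all genes in these comparisons. *Mrpl44*, at the tunnel, had 41.7 and 52.0 CPM in the controls, 56.4 to 64.7 CPM in Zzz3 auxin and 58.4 to 59.7 CPM in Yeats2 auxin, log2 FCs of 0.35 and 0.33 that did not pass, and 126 of its exon bases overlap *Wdfy1* on the opposite strand.

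Of the small subunit, *Mrps14* (ENSMUSG00000058267, chromosome 1, 160195215 to 160202170, plus strand), the S14 protein of the head, had the lowest value in Zzz3 auxin. It had 76.9 and 76.7 CPM in the controls, 39.9, 60.7 and 46.8 CPM in Zzz3 auxin and 58.5, 72.2 and 56.5 CPM in Yeats2 auxin. The log2 FCs were -0.64 (SE 0.17, edgeR adjusted P 0.0851) and -0.30 (SE 0.17, edgeR adjusted P 0.444). All 6 auxin libraries were below the controls, with a wide spread among them. *Mrps24* was at 44.0 and 48.8 CPM in the controls and 33.3 to 42.1 CPM in Zzz3 auxin, a log2 FC of -0.33, but 226 of its exon bases overlap *Urgcp* on the same strand. *Mrps11* and *Mrpl46*, which start head to head on chromosome 7 and share 173 exon bases on opposite strands, had log2 FCs of 0.37 and 0.36 after ZZZ3 depletion and of 0.41 and 0.32 after YEATS2 depletion. *Mrps11* was at 20.03 and 30.2 CPM in the controls and 26.3 to 45.0 CPM in Zzz3 auxin, so its groups overlapped, and its log2 FC there was 0.093 when Zzz3 auxin replicate 3 was left out and 0.71 when Control replicate 2 was.

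**Figure D3:**
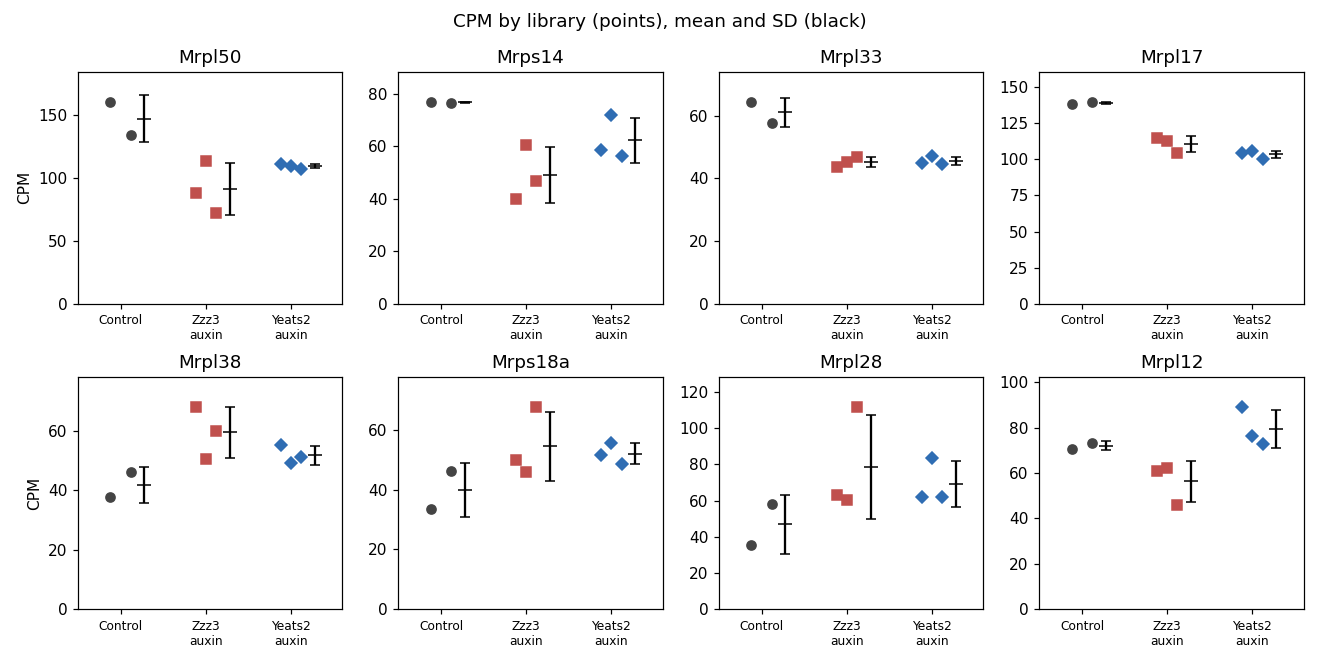
CPM in each library (points) for 8 members, with the mean and SD of each group beside them in black (n = 2, 3 and 3). *Mrpl50*, *Mrps14*, *Mrpl33* and *Mrpl17* lie below both controls in all auxin libraries, *Mrpl38* lies above them, and *Mrpl28* and *Mrps18a* show controls that differ and 1 high library, at 112 and 67.6 CPM, in Zzz3 auxin.

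The *Mrps18* genes gave 3 different values. They are related to the S18 gene of bacteria, and their products sit at different places, that of *Mrps18a* in the large subunit and those of *Mrps18b* and *Mrps18c* in the small subunit. *Mrps18a* (chromosome 17) was at 33.6 and 46.4 CPM in the controls and at 50, 46.0 and 67.6 CPM in Zzz3 auxin, a log2 FC of 0.44 (SE 0.19) that was 0.23 without Control replicate 1 and 0.70 without Control replicate 2. *Mrps18b* was at 50.3 and 52.3 CPM and at 47.0, 52.3 and 45.2 CPM, a log2 FC of -0.09 (SE 0.12). *Mrps18c* was at 51.8 and 50.5 CPM and at 35.3, 42.1 and 35.5 CPM, a log2 FC of -0.44 (SE 0.14). In Yeats2 auxin the log2 FCs of the 3 genes were 0.38, -0.08 and -0.18. None of them passed (edgeR adjusted P 0.121 to 0.798 over both comparisons), the difference between the genes was not tested, and 250 exon bases of *Mrps18c* overlap *Gm43511* on the same strand. *Mrps30* was among the least variable, with 98.7 to 110 CPM over the 8 libraries and log2 FCs of -0.05 and -0.04. *Mrpl58*, which has kept the fold of a peptide release factor, had 29.5 to 42.6 CPM and log2 FCs of 0.28 and 0.18.

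By class, members with bacterial counterparts had a median log2 FC of 0.02 for 30 large and 0.02 for 16 small subunit genes after ZZZ3 depletion, and of 0.04 and -0.01 after YEATS2 depletion. Those of mitochondria alone had 0.09 for 20 large and -0.01 for 10 small subunit genes after ZZZ3 depletion, and 0.13 and 0.11 after YEATS2 depletion. The last pair of classes counts *Mrps18a* and *Mrps18b*, which are extra copies of S18 rather than proteins without a bacterial relative. With edgeR each class had 0 calls in both comparisons. Of all genes only 0.753% and 0.445% were called, so these counts do not set a class apart. DESeq2 called *Mrpl33* and *Mrps14* with bacterial counterparts and *Mrpl50* and *Mrpl38* of mitochondria alone in Zzz3 auxin, against 7.47% of all genes. In Yeats2 auxin it called *Mrpl17*, which has a counterpart, against 3.15%. *Mrps36*, with 0.789 to 2.09 CPM, had the highest single value in Zzz3 auxin (log2 FC 0.78, SE 0.37), at a level where counts are few.

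Whether the depletions differed from each other was tested directly. Again 0 of 77 members passed, as did 0% of all genes, and the smallest edgeR adjusted P of a member was 0.779. DESeq2 called 0 members as well. The median member differed by a log2 FC of 0.01, against -0.01 over all genes. Below an unadjusted P of 0.05 there were 4 higher and 2 lower members, 6 of 77, where 6.25% of all genes were at this level. Among members with a mean of at least 2 CPM, the largest difference was that of *Mrpl12*, with 79.4 ± 8.40 CPM in Yeats2 auxin and 56.4 ± 9.07 CPM in Zzz3 auxin (SD, n = 3 each), a log2 FC of 0.49 (SE 0.13), with an interval from 0.20 to 0.79. *Mrps34*, a protein of the small subunit, followed with 25.6, 30.2 and 27.8 CPM against 23.1, 22.8 and 15.8 CPM, a log2 FC of 0.43 (SE 0.16), though 763 of its exon bases overlap *Nme3* on the same strand. *Mrpl57*, at 17.7, 22.4 and 19.8 CPM against 23.3, 23.8 and 33.5 CPM, gave -0.42 (SE 0.16). A 2-fold difference lay outside the interval of 76 members, all but *Mrps36*, and the interval stayed within 0.5 of 0 for 55. A P that misses the threshold does not show that the depletions act alike.

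DESeq2, the tool used in the study, called *Mrpl50*, *Mrps14* and *Mrpl33* lower and *Mrpl38* higher in Zzz3 auxin, 4 of 77 members, where it called 7.47% of all genes with an adjusted P. Without a filter on low counts, edgeR called *Mrpl50* and *Mrps14* lower and *Mrpl2*, *Mrpl28* and *Mrpl38* higher, 5 members, against 4.67% of all genes, and in Yeats2 auxin *Mrpl28*, 1 member, against 1.68%.

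The values of single members moved with their GC content and with single libraries. Across the 77 members, the Pearson r between GC content of the exons and log2 FC was 0.40 in Zzz3 auxin and 0.40 in Yeats2 auxin, comparisons that share the controls. The 8 members with the lowest values had a median GC content of 45.3% after ZZZ3 depletion and 45.2% after YEATS2 depletion, and the 8 with the highest 56.1% and 54.1%. *Mrps14* had 42.1% and *Mrpl50* 42.3%, against 57.8% for *Mrpl28* and 58.6% for *Mrpl38*. With each library set against the mean of all 8, r with GC content over the members was -0.51 for Control replicate 1, the lowest, and 0.34 for Zzz3 auxin replicate 3, the highest, and -0.51 and 0.36 over all genes, so the trend was not particular to the members. When the trends of every library on GC and length had been removed, r between GC content and log2 FC was -0.17 and -0.11. The log2 FC in Zzz3 auxin was then -0.46 for *Mrpl50*, -0.42 for *Mrps14*, -0.35 for *Mrpl33*, 0.44 for *Mrpl28* and 0.14 for *Mrpl38*, with 0 members called. That of *Mrps24*, with 60.7% GC, went from -0.33 to -0.73. Points share libraries in these correlations, and the part of GC content in the values of the members was not tested further.

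**Figure D4:**
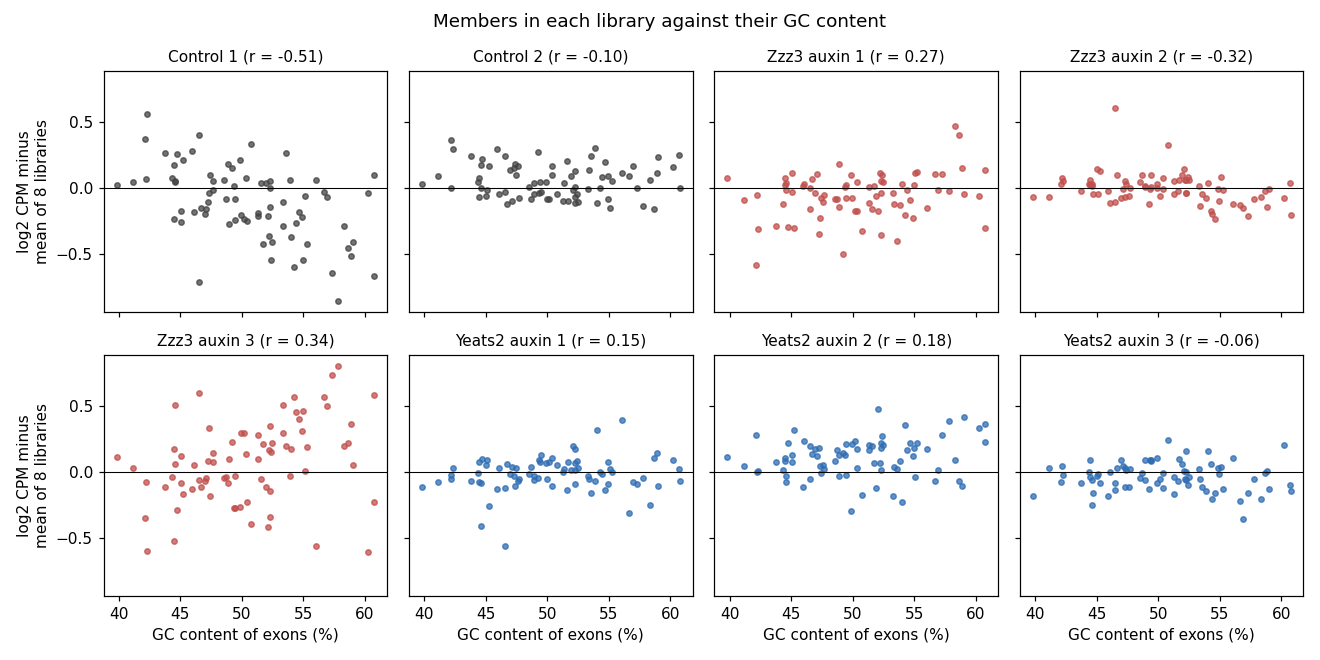
Log2 CPM of each of the 77 members minus its mean over the 8 libraries, against GC content of its exons in percent, 1 panel per library with Pearson r. Points fall with GC content in Control replicate 1, with r = -0.51, and rise with it in Zzz3 auxin replicate 3, with r = 0.34.

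Control replicate 1 was the lowest of the 8 libraries for 32 members (41.6%, against 22.8% of all genes), and Zzz3 auxin replicate 3, which had the fewest reads, was the highest for 27 (35.1%, against 21.5%). Relative to the mean of both controls, the median member was at -0.07 in Control replicate 1 and 0.07 in Control replicate 2 on the log2 scale, a mirror image by construction. In the auxin libraries it was at -0.02, 0.03 and 0.08 for Zzz3 auxin and at 0.00, 0.13 and 0.02 for Yeats2 auxin. Apart from Yeats2 auxin replicate 2 and Zzz3 auxin replicate 3, these medians lie within the range of the controls. Summed over all members, the level was 4688 and 5020 CPM in the controls, 4654, 4822 and 5035 CPM in Zzz3 auxin and 4820, 5158 and 4744 CPM in Yeats2 auxin, so the groups overlapped.

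Genes that work with the mitochondrial ribosome were not called by edgeR either. Among 5 mitochondrial ribosomal proteins with other symbols, 25 genes of ribosome assembly and ribosomal RNA modification, 16 translation factors and 4 genes of mitochondrial transcription, 0 passed in any comparison with edgeR. Of all genes 0.753%, 0.445% and 0% passed in the Zzz3, Yeats2 and direct comparisons, so these counts are near the background. Below an unadjusted P of 0.05 were 1, 6, 2 and 2 genes of these lists, in the order given, after ZZZ3 depletion, and 0, 6, 3 and 1 after YEATS2 depletion, where 21.7% and 14.6% of all genes were at this level. In Zzz3 auxin DESeq2 called *Rbfa* and *Mtg2* of the assembly list and *Polrmt* of the transcription list higher, and *Gtpbp10* and *Fastkd2* of the former and *Tfam* of the latter lower, against 7.47% of all genes. In Yeats2 auxin it called *Rbfa* higher, against 3.15%. The medians of the 4 lists in Zzz3 and Yeats2 auxin were 0.04 and -0.09, 0.02 and 0.03, 0.00 and -0.01, and 0.01 and -0.07. *Ptcd3*, a small subunit protein, was at 406 and 376 CPM in the controls, 299 to 328 CPM in Zzz3 auxin and 336 to 342 CPM in Yeats2 auxin, with log2 FCs of -0.33 and -0.21. *Rbfa*, which matures the small subunit, was at 14.7 and 18.3 CPM in the controls, 22.7 to 29.7 CPM in Zzz3 auxin and 24.4 to 28.6 CPM in Yeats2 auxin, with log2 FCs of 0.70 (SE 0.17, edgeR adjusted P 0.0729) and 0.67 (SE 0.17, edgeR adjusted P 0.124). *Polrmt*, the mitochondrial RNA polymerase, had 12.9 and 20 CPM in the controls and 20.3 to 44.4 CPM in Zzz3 auxin, a difference of 0.89 on the log2 scale (SE 0.29, edgeR adjusted P 0.122). *Tfam*, which packages mitochondrial DNA and starts its transcription, had 152 and 144 CPM in the controls, 112 to 123 CPM in Zzz3 auxin and 122 CPM in each Yeats2 auxin library, log2 FCs of -0.35 and -0.28. The edgeR log2 FC in Zzz3 auxin was 0.56 for *Mtg2*, -0.53 for *Gtpbp10* and -0.40 for *Fastkd2*. By the protocol ribosomal RNA was depleted before sequencing. The mitochondrial ribosomal RNAs were in the fit, but their values are therefore not interpreted here. *mt-Rnr2*, for instance, was at 41.2 and 7.57 CPM in the controls.

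A list of cytosolic ribosomal protein genes held 79 protein-coding genes with symbols of *Rpl* or *Rps* directly followed by a number. Genes such as *Rplp0* and *Rpsa* were thus left out. Of this list edgeR called 8 genes after ZZZ3 depletion and 4 after YEATS2 depletion, against 0.753% and 0.445% of all genes. DESeq2 called 31 and 16, against 7.47% and 3.15%. All of these calls were lower. The median log2 FCs of the list were -0.53 and -0.41, against 0.02 and 0.08 for the mitochondrial ones. The difference between both lists was not tested. For the cytosolic genes too, reads that align to several places were not counted, so their levels are uncertain. Both pairs of medians are without the GC and length correction.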

How the data were processed

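The authors deposited raw counts, with a file for each library. By the methods of the study, adapters were trimmed with cutadapt, ribosomal RNA reads were removed, and the rest was aligned to mm10 with STAR 2.5.3a and counted per gene with HTSeq 0.6.1p1 in union mode on Ensembl 102 annotation, keeping unique and unambiguous reads. The deposited counts are not normalized; for its own tests the study scaled them by the size factors of DESeq2. The labels name poly(A) RNA, while the protocol describes ribosomal RNA depletion. Tallies of reads assigned to no gene, which held 63.5% to 69.4% of the file totals, were left out.

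GENCODE M21 (GRCm38) gave symbols, positions and exon lengths for 55141 of 55401 identifiers. All 8 libraries were fitted in R 4.3.3 with edgeR 4.0.16 (filterByExpr, TMM, robust quasi-likelihood, a mean per group). Two-sided P values were adjusted (Benjamini-Hochberg) over 17532 genes, with calls at an adjusted P under 0.05. Intervals are at 95%, and CPM values are TMM-scaled. Alternatives were DESeq2 1.42.0, its size factors, all genes unfiltered, a minimum mean of 1 CPM, a fit of protein-coding genes, a fit of the compared groups, a replicate block, a GC and length correction (lowess span 0.3) and leaving out each library. Named members were drawn from the 8 highest and 8 lowest log2 FCs per comparison at a mean of at least 2 CPM. To these were added the 5 highest and 5 lowest levels per kb, the *Mrps18* genes, *Mrps30*, *Mrpl58* and any that failed the filter. Not every member that met the rule is described: *Mrps21*, *Mrps23*, *Mrpl41*, *Mrpl52*, *Mrpl34* and *Mrps12* are not. *Mrps36* was named in addition as the highest single value, and the 6 promoters printed were picked after their values were seen. The members and lists were chosen with earlier results of these data known. The pipeline was tested on simulated data. Depth makes counting error small for most members, and 2 control libraries limit the precision.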

Additional observations from a re-analysis of the deposited data

How the results depend on the processing

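The count of called members stayed at 0 in the direct comparison under all 16 alternatives, and in the others except as follows. In Zzz3 auxin it was 4 with DESeq2 and 5 without a filter on low counts, and 0 to 3 when single libraries were left out, the 3 being *Mrpl38*, *Mrpl50* and *Mrps14* without Zzz3 auxin replicate 2. In Yeats2 auxin it was 1 with DESeq2 (*Mrpl17*), 1 without a filter (*Mrpl28*) and 1 with only the compared groups in the fit (*Mrpl17*). Leaving out a library moved the median log2 FC of the members between -0.018 and 0.136 in Zzz3 auxin, with 0.136 without Control replicate 2. In Yeats2 auxin it lay between -0.031 and 0.17, with -0.031 without Control replicate 1 and 0.17 without Control replicate 2. The sign of these small medians therefore rests on single libraries. In the direct comparison the log2 FCs of *Mrpl2* and *Mrpl28* ranged from -0.43 to 0.074 and from -0.34 to 0.17 over the fits without 1 library, and were positive without Zzz3 auxin replicate 3. The cause of these shifts was not tested.

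With a replicate block, 0 members were called and the medians were 0.02, 0.04 and 0.01 in Zzz3 auxin, Yeats2 auxin and the direct comparison. Deviations from the group means correlated at -0.17 to 0.20 between same-numbered libraries and at -0.21 to 0.21 between differently numbered ones. The deviations of the 2 controls mirror each other by construction, so values that involve a control cannot decide whether the numbers pair the samples. Between Zzz3 auxin and Yeats2 auxin, r was 0.034, 0.049 and -0.033 for same-numbered libraries and -0.074 to 0.029 for differently numbered ones. These small values gave no clear sign of pairing between the auxin groups.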
